A study of Mus musculus with 10 samples.

Results

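The lens capsule is the thick basement membrane that wraps the lens, and 36 genes that build it or bind cells to it were followed here in whole mouse lenses. The genes were chosen by function: 6 collagen IV chains, 2 other basement membrane collagens, 10 laminin chains, 9 linkers and glycoproteins, and 9 receptors counted together with the adaptor Ilk. They were 36 of the 18193 genes with a probe set, and each was read from its brightest probe set, ranked by the average over the 10 arrays. Of the 36, 33 reached the signal needed for testing, set at 54.1 on average, and 13444 genes did so in all. The 3 that stayed below it were Lamb3, Lamc3 and Smoc2.

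A basement membrane forms where laminin trimers, each of an alpha, a beta and a gamma chain, bind receptors on the cell and polymerise into a sheet. A second, cross-linked network of collagen IV is laid on it, and nidogens and heparan sulfate proteoglycans join both networks. Integrins and dystroglycan hold the cell to laminin. In the lens the epithelium deposits the capsule in front and the fibre cells deposit it behind, and the capsule keeps growing for life. In the kidney glomerulus the Col4a1 and Col4a2 chains are joined during maturation by a network of the Col4a3, Col4a4 and Col4a5 chains.

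The lenses were wild type (WT) or carried a conditional null allele of Klf4 (Klf4CN), which encodes a zinc finger transcription factor of the Krüppel-like family; the labels name no Cre driver and no strain. They were dissected from embryos at E16.5, with 3 arrays per genotype and 5 embryos pooled for each, or from young adults at PN56 (postnatal day 56), with 2 arrays per genotype and 3 mice pooled for each. Each array held an independent preparation of total RNA, and the number of arrays limits the precision. In whole lenses, fewer cells of a type and less RNA per cell cannot be told apart.

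Median signals were 63.0 to 76.9 on the E16.5 arrays and 91.0 to 108.6 on the PN56 arrays, and log2 signals of arrays of a group correlated at 0.951 to 0.981 across genes. Klf4 itself read 428 to 1015 on WT arrays and 805 to 1360 on those labelled Klf4CN at E16.5, ranges that overlapped, and 157 to 214 in WT against 702 to 732 at PN56. At PN56 the lenses labelled Klf4CN thus had more Klf4 signal than WT, not less (log2 difference 1.88 ± 0.34, SE; limma adjusted p = 0.00423). A second probe set gave a log2 difference of 1.04 (limma adjusted p = 0.0753). Whether the deleted stretch holds either probe set is not given in the sources used here, and one outside it checks nothing, so every direction below is that of the lenses labelled Klf4CN. On every array each lens fibre marker read at least 1585 and each lens epithelium marker at least 105. An 18S ribosomal RNA probe set read 1155 to 2413 in WT and 20897 to 22776 in Klf4CN at E16.5, and 528 to 2870 and 5700 to 11005 at PN56; its part in any genotype difference was not tested. The dap poly-A spike read 3125 to 4159 at E16.5 and 6.5 to 14.5 at PN56, and the pools differed in size, so age and preparation cannot be told apart.

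Stretches of sequence just upstream of the listed transcription starts are shown for members that the results turn on: Tinag, Col4a5 and Nid1, which were called at PN56, and the short stretch between the starts of the neighbouring genes Col4a3 and Col4a4, which are read away from each other and moved together with age. They are RefSeq sequences of build GRCm38.p6, on each gene's own strand, and leave out bases inside a RefSeq gene span, so those of Tinag and Col4a5 stop short of the listed start. The window of Col4a1 lies inside the span of Col4a2, which starts beside it, and is not shown. Capitals mark CACCC read on either strand (as GGGTG where it lies on the other strand), the core of the motif bound by Krüppel-like factors. The 229 bases of Tinag lie at chr9:77045803-77046031 (minus strand) and are 27.5% G or C. The 71 bases between Col4a4 and Col4a3, on the strand of Col4a4, lie at chr1:82586850-82586920 and are 69.0% G or C. The 201 bases of Col4a5 lie at chrX:141475169-141475369 (plus strand), and the 250 bases of Nid1 lie at chr13:13437352-13437601 (plus strand).
Tinag: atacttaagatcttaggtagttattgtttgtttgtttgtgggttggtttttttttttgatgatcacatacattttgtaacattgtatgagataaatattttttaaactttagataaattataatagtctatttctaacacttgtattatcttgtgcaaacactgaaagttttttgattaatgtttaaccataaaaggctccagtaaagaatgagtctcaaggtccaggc
Col4a4 and Col4a3: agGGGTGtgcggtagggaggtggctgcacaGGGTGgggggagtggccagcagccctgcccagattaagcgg
Col4a5: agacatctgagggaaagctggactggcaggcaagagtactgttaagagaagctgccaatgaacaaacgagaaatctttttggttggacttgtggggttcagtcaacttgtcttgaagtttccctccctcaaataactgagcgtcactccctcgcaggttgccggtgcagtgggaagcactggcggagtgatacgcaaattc
Nid1: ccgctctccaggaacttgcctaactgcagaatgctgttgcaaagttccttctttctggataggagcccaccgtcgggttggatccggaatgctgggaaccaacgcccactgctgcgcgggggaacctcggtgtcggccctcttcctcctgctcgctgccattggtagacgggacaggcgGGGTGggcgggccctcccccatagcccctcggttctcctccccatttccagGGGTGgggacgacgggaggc

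CACCC was found 0 times in the stretches of Tinag and Col4a5 and 2 times each in those of Nid1 and of the Col4a3 and Col4a4 pair. Stretches of the same position and length hold it in 49.0% of all listed windows for Tinag, 44.6% for Col4a5, 52.0% for Nid1 and 20.3% for the pair. A listed window of 250 bases was at hand for 25 of the 36 genes, 32 windows in all, some of which overlap. Of these 32, 24 held CACCC on either strand (75.0%), against 52.0% of 32851 windows. GGGCGG, the core of the Sp1 motif, which can share a base with CACCC read on the other strand, as in the Nid1 stretch, was in 19 of the 32 on either strand (59.4%), against 32.7%, and TATAAA was in 0 of 32, against 12.4%. A match describes these letters and is not a binding site.

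At E16.5, 0 of the 33 genes passed the test between genotypes (limma, adjusted p under 0.05 over all 13444 genes), where 1 gene, or 0.00744%, did so among all genes. Unadjusted, 1 of the 33 had a p under 0.05, against 4.54% of all genes. At PN56, 1 of the 33 was higher in lenses labelled Klf4CN, where 6.08% of all genes were, and 3 were lower, where 6.99% of all genes were. The member called higher was Tinag and those called lower were Col4a1, Col4a5 and Nid1. The median log2 difference of the 33 at PN56 was -0.16, beside -0.06 over all genes tested, and 24 of the 33 lay below 0. Read against those shares, neither count stands apart from all genes. The difference of the genotype effect between the ages was called higher for Tinag alone, where 2.61% of all genes were, and lower for Col4a1 alone, where 2.0% were.

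Age moved far more of the genes. In WT, 8 of 33 rose from E16.5 to PN56, against 25.8% of all genes, and 15 fell, against 30.9%. In lenses labelled Klf4CN, 9 rose, against 22.3%, and 18 fell, against 30.8%. The comparisons within each genotype share no array: 8 genes rose in both, where 17.7% of all genes did, 15 fell in both, where 23.8% did, and 0 were called in opposite directions. Tinag and Lama2 reached the level needed for testing only through their PN56 arrays, and Col15a1, Itga5 and, in WT, Lama4 only through those of E16.5, so they had to differ with age. The median log2 difference with age was -0.23 for WT and -0.54 for Klf4CN, beside -0.04 and -0.10 over all genes. Centring each array on its median in place of the deposited scaling moves the median of all genes to -0.61 in WT and -0.48 in Klf4CN for age, and from -0.06 to 0.08 for genotype at PN56. It also moves the share of called genes that are higher from 45.5% to 18.7% in WT and from 42.1% to 21.6% in Klf4CN with age, from 46.5% to 74.4% for genotype at PN56, and from 56.6% to 85.4% for the difference of the effects. Of 44 other probe sets of these genes, 29 were bright enough to test; 8 of them had the opposite sign for genotype at PN56, 1 of which passed, and 11 and 10 had it for age in WT and Klf4CN, of which 4 and 6 passed. Directions called below held under that centring and under quantile normalization unless an exception is named.

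**Figure D1:**
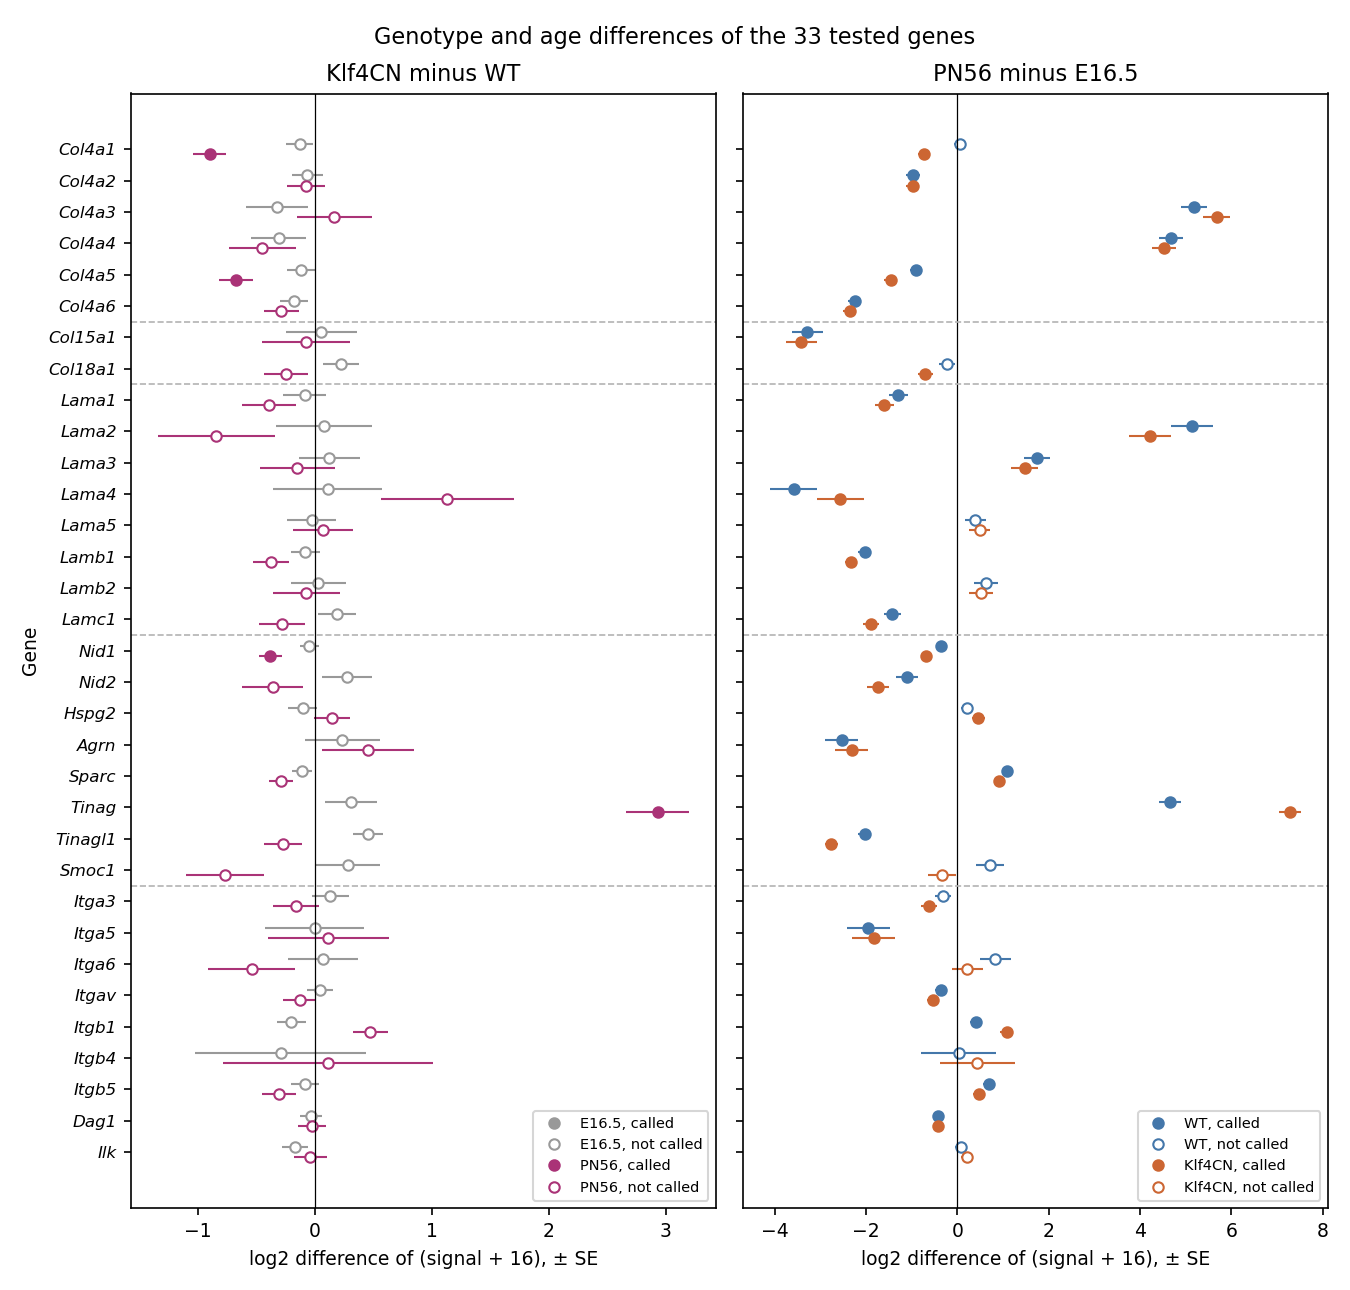
The log2 difference of (signal + 16) with its SE for each of the 33 tested genes, as Klf4CN minus WT at each age on the left and as PN56 minus E16.5 in each genotype on the right; filled points passed the test, dashed lines part the classes. Only 4 points on the left are filled, all at PN56, with Tinag at 2.93 and Col4a1 at -0.90, while the age differences run from -3.59 for Lama4 to 7.28 for Tinag.

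Collagen IV was tested first. Col4a1, a chain of the network found in nearly every basement membrane, read 28963.7 and 26561 on the WT arrays at PN56 and 17039.9 and 12932.8 on those labelled Klf4CN. At E16.5 it had read 24126.2, 25768.5 and 31149.1 in WT and 24662.7, 23841.3 and 25139.6 in the lenses labelled Klf4CN. The genotypes overlapped at E16.5 and stood apart at PN56, where the lenses labelled Klf4CN were the lowest of all 4 groups. The PN56 difference was -0.90 ± 0.14 on the log2 scale (SE; limma adjusted p = 0.00197), a mean of 14986 ± 2904 against 27762 ± 1699 (SD, n = 2 each). It passed the test in all 21 alternative settings, between -1.10 and -0.70. A dimmer probe set of Col4a1 gave -0.62, which did not pass (limma adjusted p = 0.0874).

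The genotype effect on Col4a1 at PN56 differed from that at E16.5 by -0.77 ± 0.18 (SE; limma adjusted p = 0.0347). That call was lost in 12 of 20 alternatives, over which the adjusted p ran from 0.0103 to 0.187. Among the losses were 7 fits without 1 array each: WT replicates 1 and 2 and Klf4CN replicates 1, 2 and 3 of E16.5, WT replicate 1 of PN56 and Klf4CN replicate 2 of PN56, with values from -0.57 to -0.79 and adjusted p from 0.0606 to 0.106. With age, Col4a1 fell in lenses labelled Klf4CN (log2 difference -0.72, limma adjusted p = 4.95e-04), a call lost when its probe sets were averaged (-0.26, adjusted p = 0.202). In WT its log2 difference was 0.05 (limma adjusted p = 0.778), with a sign that turned to -0.44 under quantile normalization and -0.57 under centring. The dimmer probe set read higher at PN56 in WT (0.66, limma adjusted p = 0.0129) and gave 0.20 in Klf4CN, so the probe sets differed on age.

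Col4a2, whose protein shares a trimer with that of Col4a1, did not pass between genotypes at PN56. It read 7591.7 and 7397.3 in WT and 8715.4 and 5774 in the lenses labelled Klf4CN at PN56, and the arrays overlapped (log2 difference -0.08 ± 0.16, limma adjusted p = 0.792). It fell by 0.97 in WT and by 0.98 in Klf4CN on the log2 scale with age, from means of 14713 and 14059 to 7495 and 7245.

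Col4a5 and Col4a6 are neighbours on the X chromosome whose chains assemble together in some epithelial basement membranes. Read from their brightest probe sets, both were lower at PN56 than at E16.5. Col4a5 read 16903.9, 15362.9 and 19558.5 on the WT arrays and 17141.5, 16307.8 and 14214.8 on those labelled Klf4CN at E16.5. At PN56 it read 8070 and 10449.8 in WT and 6051.1 and 5432.5 in the lenses labelled Klf4CN, so that both Klf4CN arrays lay below both WT arrays. This log2 difference of -0.68 ± 0.15 passed the test (SE; limma adjusted p = 0.0112) and kept the call in 15 of 21 alternatives. It was lost without WT replicate 2 of PN56 (-0.49, adjusted p = 0.072) and without Klf4CN replicate 2 of PN56 (-0.60, adjusted p = 0.0707), and under centring, where it was -0.53. A dimmer Col4a5 probe set gave -0.44 (limma adjusted p = 0.23). With age the log2 difference of Col4a5 was -0.90 in WT and -1.46 in Klf4CN, and that of Col4a6 was -2.25 and -2.36, which left 20.4% and 19.0% of the E16.5 mean of Col4a6. The dimmer Col4a5 probe set gave -0.03 in WT and -0.40 in Klf4CN with age, and neither passed (limma adjusted p = 0.918 and 0.117). With probe sets averaged, Col4a5 gave -0.47 and -0.93 and Col4a6 gave -1.37 and -1.44, and all 4 passed. Col4a6 did not pass between genotypes at PN56 (-0.29, limma adjusted p = 0.233).

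The Col4a3 and Col4a4 chains went the other way with age. Col4a3 read 38.9, 57.1 and 100.8 on the WT arrays and 53.8, 33.7 and 52.4 on those labelled Klf4CN at E16.5, and 2528.8 and 3101.3 in WT and 3186.3 and 3097.6 in Klf4CN at PN56. Every PN56 array was above every E16.5 array, by 42.9-fold on the means in WT and 67.4-fold in Klf4CN, log2 differences of 5.18 ± 0.29 and 5.67 ± 0.29 (SE; limma adjusted p = 3.64e-08 and 2.22e-08). All 3 Klf4CN arrays of E16.5 and the lowest of WT lie below the level needed for testing, so these folds rest on dim values. Col4a4 read 177 to 387 over the 6 arrays of E16.5, and 6555.7 and 7094.2 in WT and 5912 and 4194.8 in Klf4CN at PN56. It rose 25.6-fold in WT and 24.9-fold in lenses labelled Klf4CN. Every other tested probe set of either gene also rose in both genotypes, with log2 differences of 3.72 to 5.07. Neither gene passed between genotypes at PN56: the log2 difference was 0.16 for Col4a3 (limma adjusted p = 0.781) and -0.45 for Col4a4 (limma adjusted p = 0.333), although both Klf4CN arrays of Col4a4 lay below both of WT. Some marker lists also rose with age, where 25.8% of all genes rose in WT and 22.3% in Klf4CN. Of 10 lens fibre markers, 9 rose in each genotype, with 1 lower in WT and 0 in Klf4CN. Of 10 photoreceptor markers, of a neighbouring tissue, 9 rose in WT and 8 in Klf4CN, with 1 lower in each. Photoreceptor sums were 7072 to 9238 at E16.5 and 9444 to 24547 at PN56. Of 6 pigment cell markers, 4 rose in WT and 1 in Klf4CN, where 1 fell. Of 3 cornea and surface epithelium markers, 2 rose in each genotype. The part of these cells in the Col4a3 and Col4a4 rises was not tested.

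**Figure D2:**
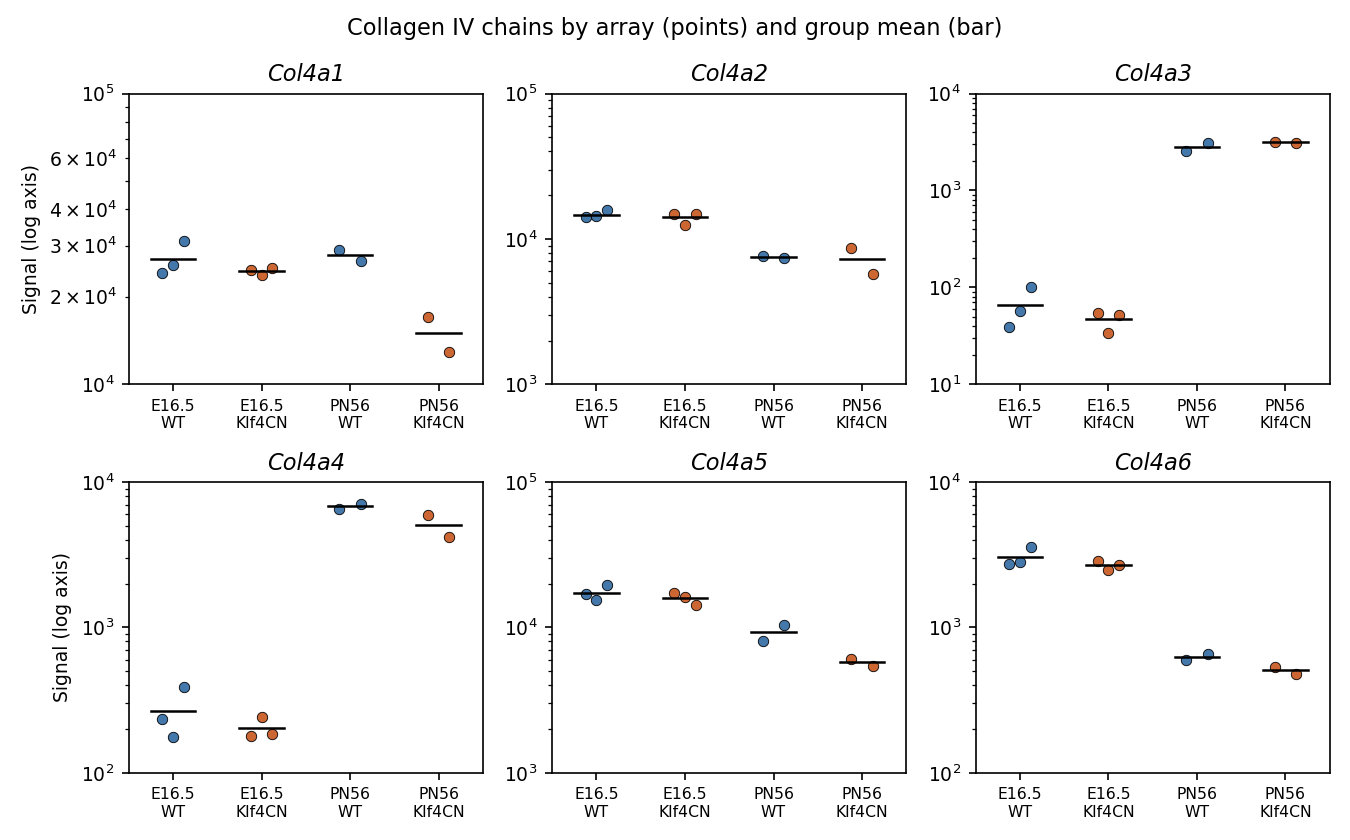
Signal of the 6 collagen IV chains on each of the 10 arrays (points; bars are group means) on log axes whose ranges differ between panels. Col4a3 and Col4a4 stand at 387 or less on every E16.5 array and at 2529 or more on every PN56 array, and the arrays labelled Klf4CN at PN56 are the lowest for Col4a1 and Col4a5.

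The lower Col4a1 and Col4a5 signals at PN56 came with lower signals of many lens genes and of control probe sets. Of 10 tested lens fibre markers, 8 were lower in lenses labelled Klf4CN at PN56, where 6.99% of all genes were, and 0 were higher, where 6.08% were, and the summed signal of the markers was 618716 to 688842 in WT and 459841 to 469771 in Klf4CN. Of 12 lens epithelium markers, 4 were lower and 0 higher, with sums of 52868 to 54420 in WT and 35346 to 39320 in Klf4CN. The cre spike, which is added to the hybridisation mix, read 78237 ± 7931 on the WT arrays of PN56 and 52250 ± 1397 on those labelled Klf4CN (SD, n = 2 each, 3' probe set). Whether lenses labelled Klf4CN also made cre RNA is not given in the sources used here. The part of these differences in the Col4a1, Col4a5 and Nid1 results was not tested.

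Col15a1 and Col18a1 are collagens with long sugar chains that sit at the edge of basement membranes, the first mainly around vessels, muscle and nerve. Col15a1 read 213.9 to 351.7 over the 6 arrays of E16.5 and 8.4 to 18.2 over the 4 arrays of PN56, which lie below the level needed for testing. It fell in both genotypes, with log2 differences of -3.28 in WT and -3.42 in Klf4CN (limma adjusted p = 6.02e-06 and 4.8e-06). Col18a1 read 1273.5, 1562.3 and 1016 on the WT arrays and 1446.9, 1418.2 and 1583.5 on those labelled Klf4CN at E16.5, and 1171 and 995.3 in WT and 1003.3 and 817.8 in Klf4CN at PN56. It fell in Klf4CN (-0.70, limma adjusted p = 0.00444; -0.55 and adjusted p = 0.0531 without Klf4CN replicate 2 of PN56) and gave -0.23 in WT (limma adjusted p = 0.283). Another Col18a1 probe set rose with age, by 1.10 in WT and by 0.72 in Klf4CN, so Col18a1 has no settled direction with age. Neither collagen passed between genotypes at either age.

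Endothelial markers fell alongside Col15a1. The hyaloid vessels cover the embryonic lens and regress after birth. All 12 markers of their endothelium were lower at PN56 than at E16.5 in both genotypes, where 30.9% of all genes fell in WT and 30.8% in Klf4CN. Their medians were -3.03 in WT and -3.15 in Klf4CN. Their summed signal was 7301 to 11424 on the E16.5 arrays and 794 to 1304 on the PN56 arrays, and 0 of them read 0 on any array. Of 12 macrophage markers, 10 fell in WT with 0 higher, and 8 fell in Klf4CN with 1 higher. Of 3 red blood cell markers, 2 fell in each genotype, with 0 higher in WT and 1 in Klf4CN. Lama4, described next, fell too, and the part of vessel cells, macrophages or red blood cells in either result was not tested.

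The laminin alpha chains differ in the receptors they bind, and those detected here parted by age. Lama1, the alpha chain of early embryonic basement membranes, read 988.1, 1009.8 and 1580.9 on the WT arrays and 1102.4, 926.2 and 1283 on those labelled Klf4CN at E16.5. At PN56 it read 439.4 and 492 in WT and 337.3 and 363 in Klf4CN, below every embryonic array. It fell with log2 differences of -1.30 ± 0.21 in WT and -1.60 ± 0.21 in Klf4CN (SE; limma adjusted p = 2.06e-04 and 4.08e-05). Lama4, the alpha chain of vessel walls, fell, with log2 differences of -3.59 in WT and -2.57 in Klf4CN. Its PN56 signals were 8.5 and 9.4 in WT and 9.1 and 102.5 in Klf4CN. The value in Klf4CN was -3.69 without Klf4CN replicate 2 of PN56, the array at 102.5, and -1.45 without replicate 1, and it passed in both.

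Lama2, the alpha chain of muscle and nerve basement membranes, rose steeply with age. It read 66.3, 26.8 and 15.8 on the WT arrays and 79.2, 22.3 and 19.8 on those labelled Klf4CN at E16.5, where the group means lay below the level needed for testing, and 1803.7 and 1548.5 in WT and 918.5 and 929 in Klf4CN at PN56. Every adult array was above every embryonic one, with log2 differences of 5.13 ± 0.46 in WT and 4.21 ± 0.46 in Klf4CN (SE; limma adjusted p = 1.59e-06 and 9.26e-06). Both Klf4CN arrays of PN56 lay below both WT arrays, a mean of 924 ± 7.42 against 1676 ± 180 (SD, n = 2 each). In the fit over all 10 arrays, that difference of -0.84 ± 0.50 did not pass (limma adjusted p = 0.297). Lama3, an alpha chain of stratified epithelia, rose from means of 138 and 159 to 502 in WT and 449 in Klf4CN, by 1.74 and 1.47 on the log2 scale; the WT value was 0.82 with probe sets averaged and still passed. Lama5, the broadest of the adult alpha chains, did not pass in any comparison, and another of its probe sets fell with age in WT (-1.56, limma adjusted p = 0.0104).

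The beta and gamma chains most used with Lama1 fell with it. Lamb1 read 3870.2, 4684.9 and 4651 on the WT arrays and 4201.6, 3879.5 and 4344.7 on those labelled Klf4CN at E16.5, and 1225.4 and 913.3 in WT and 874.5 and 749.5 in Klf4CN at PN56. Its log2 difference with age was -2.03 in WT and -2.33 in Klf4CN, and that of a second probe set was -1.47 and -1.73; averaged over its probe sets it was -0.77 and -1.21, and both passed. Lamc1, the gamma chain of most laminins, fell with log2 differences of -1.42 and -1.89, from means of 1365 and 1527 to 489 in WT and 399 in Klf4CN. A second Lamc1 probe set near the level needed for testing rose in Klf4CN (1.79, limma adjusted p = 0.0274). With its probe sets averaged, Lamc1 gave -0.32 in WT and -0.05 in Klf4CN, and both calls were lost (limma adjusted p = 0.405 and 0.903). Lamb2, a beta chain of mature basement membranes, did not pass with age (0.62, limma adjusted p = 0.0629 in WT, and 0.52, limma adjusted p = 0.118 in Klf4CN), although every adult array was above every embryonic one. The 8 tested laminins gave 0 calls between genotypes at PN56, with a median of -0.22 and a smallest limma adjusted p of 0.129, for Lamb1. Beside 6.08% of all genes called higher and 6.99% lower, 0 of 8 does not stand apart. Lamb3 averaged 22.3 and Lamc3 53.7 over the arrays, both chains of laminins with restricted distribution.

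**Figure D3:**
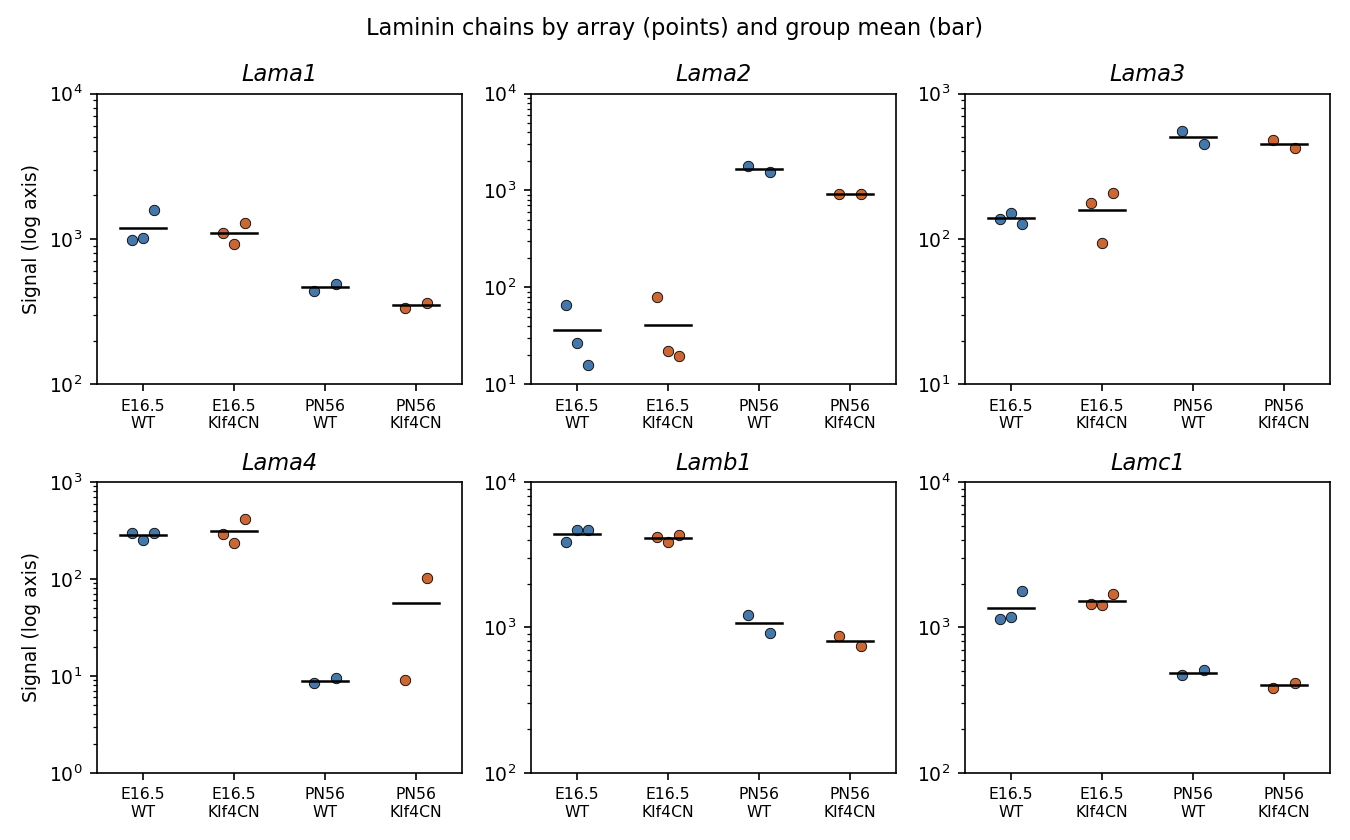
Signal of 6 laminin chains on each of the 10 arrays (points; bars are group means) on log axes whose ranges differ between panels. Lama1, Lama4, Lamb1 and Lamc1 are lower on every PN56 array than on any E16.5 array, Lama2 and Lama3 are higher, and 1 PN56 array of Lama4 labelled Klf4CN stands at 102.5 beside 8.5 to 9.4 on the other 3.

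Among the linkers and glycoproteins, Tinag had the largest genotype difference of the 33 tested genes, at PN56. It encodes tubulointerstitial nephritis antigen, a glycoprotein of kidney tubule basement membranes that binds laminin and collagen IV. At E16.5 it read 32.1, 40.7 and 20.5 in WT and 39, 33.2 and 53.8 in the lenses labelled Klf4CN, all below the level needed for testing. At PN56 it read 1172.2 and 1135.6 in WT and 8502.9 and 9326 in the lenses labelled Klf4CN. The embryonic genotypes overlapped, both adult genotypes were above them, and both Klf4CN arrays were far above both WT arrays. The adult means were 1154 ± 25.9 and 8914 ± 582 (SD, n = 2 each), 7.73-fold apart. The log2 difference was 2.93 ± 0.27 (SE; limma adjusted p = 6.79e-05), and it passed in all 21 alternatives at values from 2.81 to 3.07. Tinag has a single probe set on the array, so no other probe set checks it. Summed signals of photoreceptor, macrophage and endothelial markers overlapped between the genotypes at PN56. All 10 tested photoreceptor markers lay above 0 (median 0.46, 0 passed). Of 12 macrophage markers, 2 passed as higher, while 7 lay below 0 (median -0.07). Sums of red blood cell markers overlapped too, at 105.0 to 248.2 in WT and 140.3 to 370.5 in Klf4CN, with all 3 tested markers above 0 and 0 past the test. Sums of other lists stood lower in Klf4CN. Those of pigment cell markers were 6795 to 8626 in WT and 3267 to 3650 in Klf4CN. Those of retinal neuron markers were 6070 to 6303 and 5145 to 5492, although 6 of the 11 tested lay above 0 (median 0.12). Those of mesenchyme markers were 4497 to 5319 and 3659 to 4470, although 5 of the 9 tested lay above 0 (median 0.0019). Cornea and surface epithelium markers summed to 92148 to 99868 in WT and 62820 to 67040 in Klf4CN, and 2 of the 3 tested passed as lower. Their part in the Tinag result was not tested.

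The genotype effect on Tinag at PN56 exceeded that at E16.5 by 2.62 ± 0.35 on the log2 scale (SE; limma adjusted p = 0.00223), which passed in all 20 alternatives. With age, Tinag rose 37.1-fold on the means in WT and 212-fold in lenses labelled Klf4CN, log2 differences of 4.66 ± 0.25 and 7.28 ± 0.25 (SE; limma adjusted p = 1.91e-08 and 9.77e-10). Because the embryonic signals are near background, these folds rest on dim values below.

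Tinagl1, a secreted relative of Tinag, did not pass between genotypes. It read 2415.3, 2154.7 and 2103.9 on the WT arrays and 2972.9, 2741.7 and 3457.8 on those labelled Klf4CN at E16.5, and 559.2 and 504.2 in WT and 496.9 and 382.8 in Klf4CN at PN56. The Klf4CN arrays were all higher at E16.5 and all lower at PN56, and neither difference passed (0.45 ± 0.13, limma adjusted p = 0.854, and -0.27 ± 0.16, limma adjusted p = 0.285). The difference of the effects did not pass either (-0.73 ± 0.21, limma adjusted p = 0.0675). How many of all genes turn in this way was not counted. Pigment cell markers turned the same way: all 6 tested lay above 0 at E16.5 (median 1.88) and below 0 at PN56 (median -0.94), and 2 of them passed as lower for the difference of the effects. All 11 retinal neuron markers lay above 0 at E16.5 (median 1.66), where 0 of either list passed; their part in the Tinagl1 values was not tested. With age Tinagl1 fell, with log2 differences of -2.03 in WT and -2.76 in Klf4CN.

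Nid1 and Nid2 encode nidogens, which link laminin to collagen IV. Nid1 read 25263.1, 26004.2 and 29135.8 on the WT arrays and 25593, 25229.3 and 26732 on those labelled Klf4CN at E16.5, and 20776.9 and 20847.3 in WT and 16799.8 and 15113.5 in Klf4CN at PN56. The adult arrays stood apart by genotype, with a log2 difference of -0.38 ± 0.10 (SE; limma adjusted p = 0.0247). The call held in 13 of 21 alternatives. It was lost without WT replicate 1 or 2 of PN56 (adjusted p = 0.0791 and 0.0659), without Klf4CN replicate 2 of PN56 (-0.31, adjusted p = 0.119), and under centring (-0.24, adjusted p = 0.344). With age the log2 difference of Nid1 was -0.36 in WT and -0.70 in Klf4CN, while a dimmer probe set rose by 2.60 and 1.68, so its direction with age depends on the probe set. Nid2 read 321.6 to 456.6 at E16.5 and 95.7 to 171.7 at PN56, and fell with log2 differences of -1.10 in WT and -1.74 in Klf4CN.

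Sparc, a collagen-binding protein whose loss causes cataract in mice, was bright in all groups. It read 27864.2, 26319.5 and 25908.8 on the WT arrays and 25734.5, 24020.4 and 24294.7 on those labelled Klf4CN at E16.5, and 61639.3 and 51974.7 in WT and 48082.8 and 44283.2 in Klf4CN at PN56. At each age every Klf4CN array was below every WT array, but neither difference passed (limma adjusted p = 0.9997 and 0.0817), and a second probe set gave 0.05 at PN56. Sparc rose with age by 1.08 in WT and by 0.90 in Klf4CN, a Klf4CN rise that shrank to 0.09 under quantile normalization (adjusted p = 0.564). Smoc1, a Sparc relative, read 223.8 and 234 in WT and 120.4 and 135 in Klf4CN at PN56, apart but not past the test (-0.77, limma adjusted p = 0.152), and Smoc2 averaged 20.2.

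The heparan sulfate proteoglycans Agrn and Hspg2 encode agrin and perlecan. Agrn fell with age from means of 1081 and 1236 to 165 in WT and 250.1 in Klf4CN, log2 differences of -2.53 and -2.31. Averaged with a second probe set, which had a mean signal of 12.9, it gave -0.65 in WT, where the call was lost (limma adjusted p = 0.141), and -1.09 in Klf4CN (limma adjusted p = 0.023). Hspg2 rose in Klf4CN (0.46, limma adjusted p = 0.0143) and gave 0.21 in WT (limma adjusted p = 0.22). The Klf4CN rise was lost without Klf4CN replicate 2 of PN56 (0.32, adjusted p = 0.137) and under centring (0.05), and a dimmer Hspg2 probe set fell, with -2.65 in WT and -3.24 in Klf4CN, so Hspg2 has no settled direction.

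**Figure D4:**
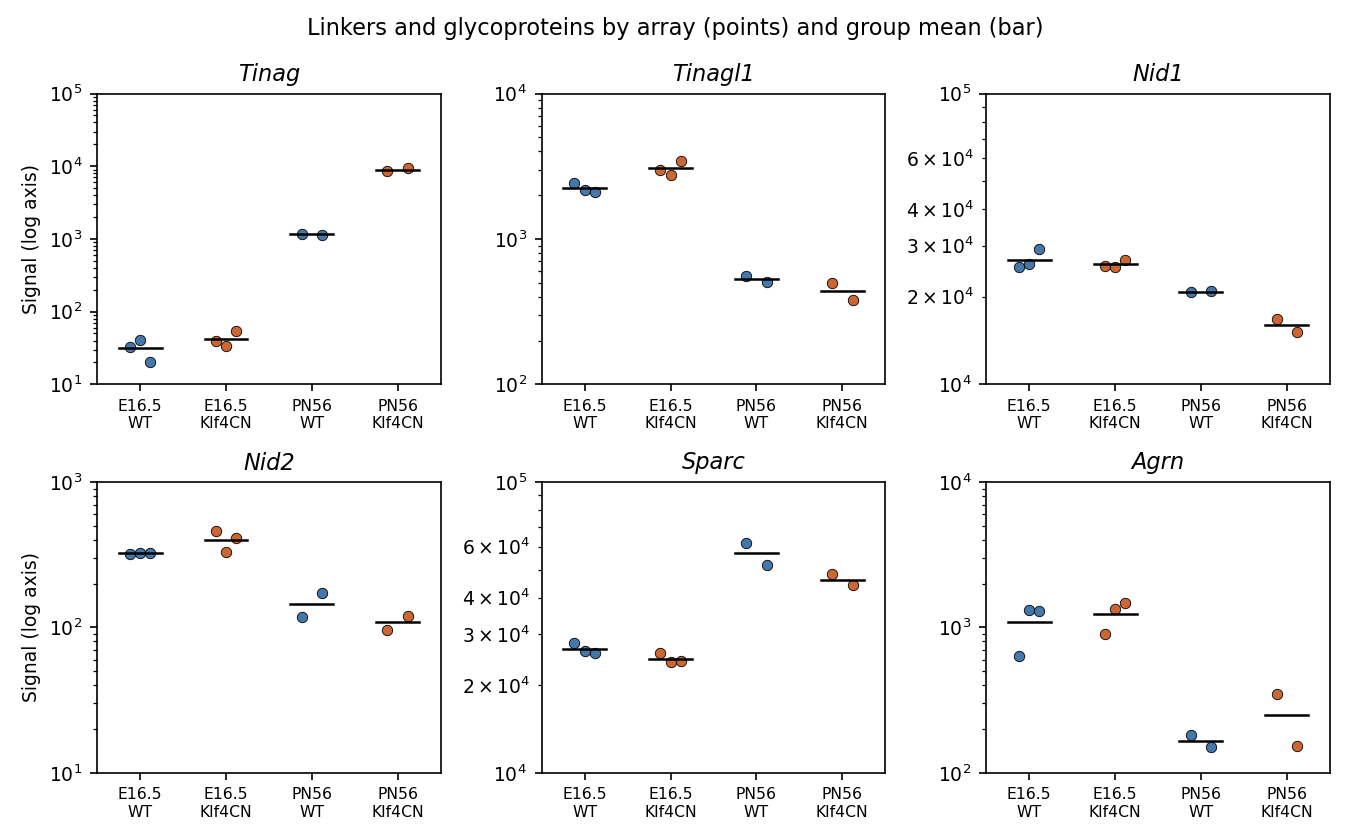
Signal of 6 linker and glycoprotein genes on each of the 10 arrays (points; bars are group means) on log axes whose ranges differ between panels. Tinag stands at 54 or less on every E16.5 array, at 1136 and 1172 on the WT arrays of PN56 and at 8503 and 9326 on those labelled Klf4CN, while Tinagl1, Nid2 and Agrn are lower on every PN56 array than on any E16.5 array.

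The receptors gave 0 calls between genotypes in 9 tested genes, at either age, with a median of -0.04 at PN56. Of all genes, 6.08% were called higher and 6.99% lower at PN56, and 0.00744% were called at E16.5. Beside those shares, 0 of 9 does not stand apart. Itgb1, the beta subunit shared by most laminin-binding integrins, came nearest to a call. It read 1692.8, 1556.6 and 2103.1 on the WT arrays and 1695, 1461.7 and 1460.6 on those labelled Klf4CN at E16.5, and 2471.4 and 2217.3 in WT and 3376.1 and 3133.5 in Klf4CN at PN56. Both adult Klf4CN arrays were the highest of all, but the log2 difference of 0.47 ± 0.15 did not pass (limma adjusted p = 0.0577). A second Itgb1 probe set passed for genotype at PN56 (0.70, limma adjusted p = 0.0126) and for the difference of the effects (0.96, limma adjusted p = 0.0223). Itgb1 rose with age by 1.08 in Klf4CN, a call lost when its probe sets were averaged (0.33, limma adjusted p = 0.213). Its rise of 0.40 in WT (limma adjusted p = 0.0243) turned to -0.21 under centring. That WT call was lost when probe sets were averaged (0.18, limma adjusted p = 0.496) and without WT replicate 1 or 2 of E16.5 (0.37 and 0.31). Without WT replicate 1 of PN56 the value was 0.32. The second probe set gave -0.32 with age in WT (limma adjusted p = 0.0659), with both adult arrays below every embryonic one.

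Itga6, the alpha subunit that pairs with Itgb1 or Itgb4 to bind laminin, read 9871.5, 9311.9 and 3899.4 on the WT arrays and 10087.1, 7626.5 and 5357.3 on those labelled Klf4CN at E16.5. At PN56 it read 13444.1 and 11885.2 in WT and 9208 and 8153.6 in Klf4CN. The adult Klf4CN arrays were below those of WT, and the wide embryonic spread entered the fit; the difference of -0.54 ± 0.37 did not pass (limma adjusted p = 0.369). A second Itga6 probe set of similar brightness passed at PN56 (-0.77, limma adjusted p = 0.0486). With age the main probe set gave 0.83 in WT and 0.22 in Klf4CN and passed in neither, and the Klf4CN value turned to -0.19 under centring. The second rose in both genotypes (1.51 in WT, limma adjusted p = 6.05e-05, and 0.54 in Klf4CN, limma adjusted p = 0.0437). Itga3, another laminin-binding alpha subunit, fell in Klf4CN with age (-0.62, limma adjusted p = 0.0106; -0.37 and adjusted p = 0.131 without Klf4CN replicate 1 of PN56) and gave -0.33 in WT (limma adjusted p = 0.135). A dim Itga3 probe set rose in Klf4CN with age (1.28, limma adjusted p = 0.0476), and with probe sets averaged the Klf4CN fall was lost (-0.25, adjusted p = 0.432).

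Itga5, the fibronectin-binding alpha subunit, fell from means of 123 and 125 to 20.4 and 27.1, below the level needed for testing. Its log2 difference of -1.83 in Klf4CN became -1.14 without Klf4CN replicate 2 of PN56 (adjusted p = 0.0689). Itgav and Itgb5 form a receptor for vitronectin. Between genotypes at PN56 the main Itgb5 probe set gave -0.31 and was not called. Another passed as lower in lenses labelled Klf4CN (-0.45, limma adjusted p = 0.04345), while the rest did not pass (-0.29 and -0.04). Itgb5 rose by 0.68 in WT and by 0.46 in Klf4CN, where it was 0.24 without Klf4CN replicate 1 of PN56 (adjusted p = 0.152), and under centring the rises shrank to 0.07 and 0.06. Itgav fell, with log2 differences of -0.37 in WT and -0.54 in Klf4CN. The WT fall was lost without WT replicates 2 or 3 of E16.5 or either WT array of PN56 (-0.31 to -0.43), and the Klf4CN fall without Klf4CN replicate 2 of PN56 (-0.37, adjusted p = 0.0518). A much dimmer Itgav probe set read higher in Klf4CN at PN56 (1.59, limma adjusted p = 0.014), against -0.13 for the main one, and rose with age in Klf4CN (1.75).

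Dag1 encodes dystroglycan, a laminin receptor outside the integrin family. It read 3205.5, 3451 and 3297.7 on the WT arrays and 3334.7, 3160 and 3223.4 on those labelled Klf4CN at E16.5, and 2591.9 and 2345 in WT and 2678.6 and 2177.3 in Klf4CN at PN56. The genotypes overlapped at both ages. With age its log2 difference was -0.43 in WT and -0.42 in Klf4CN, both past the test, the second lost without Klf4CN replicate 2 of PN56 (-0.27, adjusted p = 0.0735). With probe sets averaged both calls were lost (-0.10, adjusted p = 0.75, and -0.27, adjusted p = 0.374). Itgb4, the hemidesmosome subunit, averaged 58.3, the dimmest of the tested genes, and did not pass in any comparison. Ilk, the adaptor that ties integrin tails to actin, did not pass either, with log2 differences of -0.17 at E16.5 and -0.04 at PN56 between genotypes.

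Wider lists of genes around the basement membrane were read at PN56 beside these; their counts stand beside 6.08% of all genes higher and 6.99% lower. Of 18 tested genes of collagen folding and cross-linking, 1 was higher and 4 were lower in lenses labelled Klf4CN, with a median log2 difference of -0.46. The 4 were Ppib, which speeds collagen folding (-0.44, limma adjusted p = 0.00927), P4ha1, which hydroxylates collagen proline (-0.57, limma adjusted p = 0.0415), Loxl1, a lysyl oxidase family cross-linker (-0.79, limma adjusted p = 0.0151), and Pxdn, which forms the sulfilimine bonds of collagen IV (-0.67, limma adjusted p = 0.0346). Pxdn read 4291.6 and 3323.5 in WT and 2842.8 and 1972.1 in Klf4CN. Serpinh1, the collagen chaperone of the endoplasmic reticulum, was higher (0.44, limma adjusted p = 0.0491), at 2305.8 and 2890.7 in WT and 3710 and 3321.8 in Klf4CN. In each of these 5 genes both Klf4CN arrays lay on 1 side of both WT arrays, but the genes were named because they passed on these same arrays. How many of all genes stand apart in this way was not counted.

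Of 19 tested genes of matrix turnover, 1 was higher and 2 were lower, with a median of 0.01, counts near the 6.08% and 6.99% of all genes. Mmp2, a gelatinase that cuts collagen IV, was higher by 1.85 on the log2 scale, at 136.7 and 35.8 in WT and 418.9 and 221.8 in Klf4CN (limma adjusted p = 0.0333). Adamts5, a proteoglycan-cutting protease, and Reck, a membrane-anchored inhibitor of metalloproteinases, were lower, with log2 differences of -1.10 and -0.98 (limma adjusted p = 0.0275 and 0.0163). Of 24 tested other matrix proteins, 2 were higher and 0 lower. Tgfbi, a matrix protein that binds collagens and integrins, read 188.8 and 245.1 in WT and 1088.6 and 858.7 in Klf4CN (2.09, limma adjusted p = 0.00295), and its effect also differed between the ages (2.16, limma adjusted p = 0.0224). Egflam, which encodes pikachurin, a dystroglycan ligand of the retina, read 473.6 and 497.8 in WT and 1308.4 and 1494.8 in Klf4CN (limma adjusted p = 0.00146). Of 12 macrophage markers, 2 passed as higher in Klf4CN at PN56, Cd68 and Tyrobp, but 7 lay below 0 and the median was -0.07. The summed signal of the 12 was 2352 to 2536 in WT and 2371 to 4086 in Klf4CN. Photoreceptor markers, of the tissue where Egflam acts, all lay above 0 at PN56, with a median of 0.46 over 10 and 0 past the test. The part of these cells in the Mmp2, Tgfbi and Egflam values was not tested.

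Of 19 tested integrin adhesion partners, 2 were higher and 5 lower at PN56, against 6.08% and 6.99% of all genes, with a median of 0.01. Both talins, which switch integrins on, were called and in opposite directions: Tln1 higher (0.68, limma adjusted p = 0.0232) and Tln2 lower (-0.90, limma adjusted p = 0.00565). The actin cross-linker Actn1 was higher (0.63, limma adjusted p = 0.00971), while Lims1, a partner of Ilk, Pxn, Zyx and the tetraspanin Cd151, a partner of laminin-binding integrins, were lower by log2 differences from -0.67 for Lims1 to -0.43 for Pxn. Of 17 tested genes of the dystroglycan complex and the enzymes that add its sugars, 1 was lower, Sgcb (-0.90, limma adjusted p = 0.0122), and 0 were higher. Of 19 other integrins and matrix receptors, 1 was lower, the collagen receptor Ddr1 (-0.39, limma adjusted p = 0.0464), and 0 were higher. At E16.5 limma called 0 of the 116 tested genes of these lists, 7 of which had an unadjusted p under 0.05, against 4.54% of all genes.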

How the data were processed

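Signals of whole-lens RNA on 10 mouse arrays were analysed. Each deposited value is a linear intensity of 1 probe set on 1 array, made with GCOS 1.4 per the submitters' processing notes; the rest of the upstream processing is not given in the sources used here. The mean of every array after trimming 2% at each end was 500.0, so the deposited intensities had been scaled to a common level. Detection calls were not used here. Of 45101 probe sets, 34945 had a single gene symbol; 34741 were matched by gene number to RefSeq names and 0 changed.

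All arrays entered 1 fit with limma 3.58.1 in R 4.3.3 on log2(signal + 16), an offset under which a fold change of a dim gene is understated. It used 4 group means, an intensity trend, two-sided tests and Benjamini-Hochberg adjustment over all 13444 genes with a mean at or above the 40th percentile of probe sets, and called genes at an adjusted p under 0.05. Each gene was read from its brightest probe set. The fit was tested on simulated data: at E16.5 it recovered 64 of 105 genes changed by 1 on the log2 scale and 86 of 95 changed by 2, and at PN56 60 of 104 and 81 of 96. The genes and lists were chosen with earlier results of these data known. Every member is accounted for, with values by array for those called between genotypes and at least the 2 brightest of each class. Other probe sets are given for some members where signs differ, not for all. Genes of the wider lists are named when called between genotypes. Alternatives were quantile normalization, centring on the array median, offsets of 1 and 64, no filter or one at the 60th percentile, averaging the probe sets of a gene, leaving out the trend, array weights, the replicate number as a block, a fit on the 2 compared groups, and leaving out each array; with 1 array left in a group, it is assumed to vary like the others.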

Additional observations from a re-analysis of the deposited data

Results flagged for a closer look

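The genotype effects on Tinag, Col4a1 and Tinagl1 were compared between the 2 ages. For Tinag the log2 difference between lenses labelled Klf4CN and WT was 2.62 larger at PN56 than at E16.5, and limma's test of that difference passed (adjusted p = 0.00223), with both PN56 arrays labelled Klf4CN above both WT arrays. For Col4a1 the effect at PN56 differed from that at E16.5 by -0.77 (limma adjusted p = 0.0347), a call that 12 of 20 alternatives lost. For Tinagl1 every array labelled Klf4CN was above every WT array at E16.5 and below at PN56, a difference of effects of -0.73 that did not pass limma's test (adjusted p = 0.0675). Tinagl1 was flagged for this pattern itself, and how many of all genes show it was not counted.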

How the results depend on the processing

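Of 4 genes called between genotypes at PN56, 2 (Tinag and Col4a1) kept the call in all 21 alternatives; with age, 16 of 23 in WT and 15 of 27 in Klf4CN did. The count of members lower at PN56 went from 3 to 1 under centring, the averaging of probe sets, no trend and array weights, and ran from 1 to 4 with 1 array left out; the count higher ran from 1 to 2. For the difference of the effects, the 1 member called lower became 0 under centring, no filter, the mean of probe sets, no trend and array weights, and ran from 0 to 2 with 1 array left out, and the count higher from 1 to 2. Members lower with age in Klf4CN went from 18 to 10 under the mean of probe sets, which also reversed Itgav (0.10) and Nid1 (0.88) in WT and Col18a1 (0.0083), Hspg2 (-1.39), Itgav (0.44) and Nid1 (0.19) in Klf4CN; their other probe sets differ in sign. Centring reversed Itgb1 in WT (-0.21). The fit on the 2 compared groups called 4 members lower at PN56, and Nid1, whose call it lost, was not among them. Over all genes, calls at E16.5 went from 1 to 3 (quantile), 8 (array weights) and 0 (probe set mean, no trend, block, 2 groups), and 0 to 3 with 1 array left out. Calls at PN56 went from 1757 to 1089 (centring), 1082 (probe set mean), 634 (array weights) and 773 (2 groups), and 1053 to 1910 with 1 array left out. Calls for the difference went from 620 to 306 (probe set mean), 200 (no trend) and 320 (array weights), and 273 to 939 with 1 array left out. The cause of the other changes was not tested. Col15a1, Itga5 and Lama4 (WT) at PN56, and Lama2, Tinag, Col4a3 (Klf4CN) and Itgb4 (Klf4CN) at E16.5, average below the level needed for testing.

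Replicate numbers were not used to pair the samples in the main fit. At E16.5, deviations of same-numbered arrays correlated at 0.27, 0.24 and 0.05, and those of other arrays at -0.28 to 0.06. The highest of the latter was WT replicate 3 with Klf4CN replicate 2. At PN56 the values were 0.04 and -0.04, of equal size because each group has 2 arrays. Whether the numbers pair the samples is thus not settled. With the replicate block, genes called numbered 0 at E16.5, 1685 at PN56, 530 for the difference, and 7286 in WT and 6826 in Klf4CN with age; members called at PN56 were 1 higher and 4 lower.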
